A study of Arabidopsis thaliana with 12 samples.

Results

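The UGT genes encode the family 1 glycosyltransferases of plants, enzymes that move a sugar from a UDP-sugar onto small molecules. Their acceptors include flavonoids, hydroxycinnamic acids, monolignols, glucosinolate precursors and hormones such as auxin, cytokinin, abscisic acid and salicylic acid, and the added sugar commonly makes the molecule more soluble and less active. In seedlings, light is known to induce flavonoid and sinapate ester production, and hormone conjugation accompanies the change from growth in darkness to growth in light. The genes described here are those whose probe set was annotated to 1 gene with a symbol of UGT followed by a digit. There were 47, each with 1 probe set, among 22746 probe sets other than controls, and the TAIR10.1 gene table holds 58 such symbols in all. They belong to 11 families by the number in their symbol.

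Transcript levels came from oligonucleotide arrays hybridised with RNA from shoots (the aerial parts) of Arabidopsis thaliana seedlings aged 4 days. Wild-type Ler (Landsberg erecta) and atbzip16, labelled as a mutant in the same cultivar and named after the transcription factor bZIP16, were each either kept etiolated in the dark or given red light in a long-day cycle, with a fluence rate of 0.5 µmol m-2 s-1. The molecule is labelled total RNA, but the extraction protocol also describes polysome RNA, so whether all or ribosome-bound transcripts were measured rests on that label. Each of the 4 groups had 3 biological replicates, 12 arrays in all, and the labels do not say what the atbzip16 allele is or whether the line was complemented. Titles, source names and treatments gave the groups, while the free-text descriptions of the dark atbzip16 and red-light Ler arrays name the other light condition. In bulk tissue, fewer cells of a type and less RNA per cell cannot be told apart.

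Photosynthetic and seed marker genes moved with light and may bear on every light response given below. The summed signal of 4 measured photosynthetic genes of 11 listed was 12132.1 to 20769.1 on arrays titled dark and 35409.5 to 70895.1 on those titled red light, so these ranges followed the titles. The 4 measured seed genes of 15 listed all fell in both genotypes. Their sum was 20452.8 to 37295.8 in dark Ler, 48890.5 to 65224.1 in dark atbzip16 and 455.4 to 604.7 in red light. The 2 measured root hair genes of 14 listed summed to 50.5 to 144.7 in the dark and 87.4 to 246.2 in red light, and no marker was listed at 0. Neither root hair gene was called for light in either genotype. The part of seed or root RNA in the UGT results was not tested.

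Signals are linear units scaled to the same trimmed mean on every array. The brightness of a probe set also depends on its probes, so levels are compared between groups and not between genes. The 47 geometric mean signals ran from 4.72 to 1448, and 16 lay under 41.6, the level below which the dimmest 30% of all probe sets lay. The 5 brightest probe sets were those of UGT88A1, UGT74D1, UGT73B1, UGT85A2 and UGT76E2, and the 5 dimmest those of UGT78D3, UGT84A1, UGT84B2, UGT76E1 and UGT73C1. The SD between replicates had a median of 1.40 (log2) in these 16 and 0.36 in the 31 brighter genes, as the plot of spread against signal shows. Differences in the dim genes are therefore poorly resolved, and none of them was called in any comparison of all 12 arrays. A gene was called where limma's adjusted p over all 22746 probe sets was under 0.05.

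**Figure D1:**
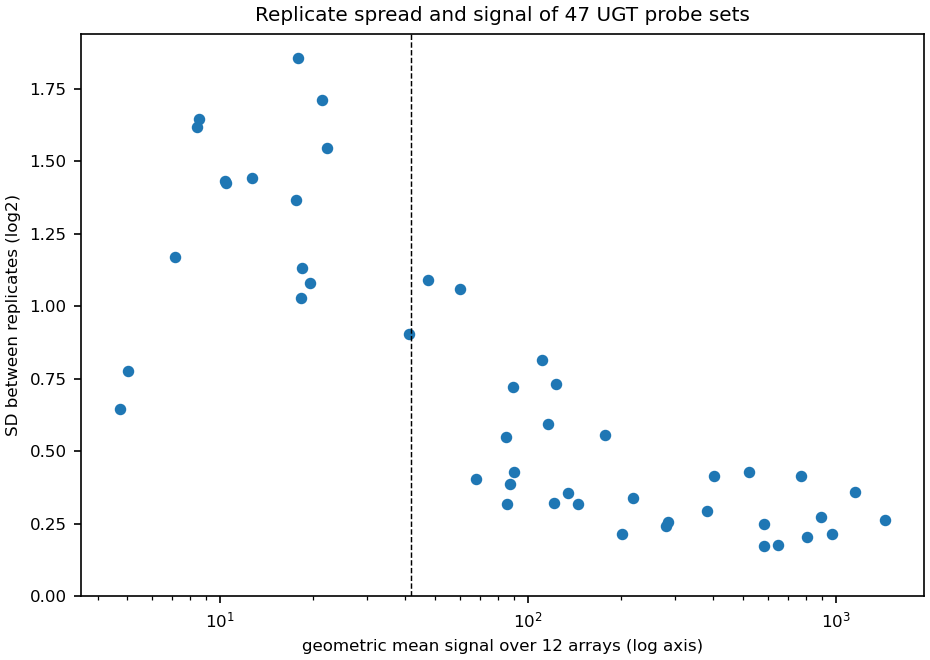
SD between replicates (log2, pooled over the 4 groups) against the geometric mean signal over 12 arrays (log axis), with 1 point per UGT gene. The dashed line is a signal of 41.6, and the 16 genes left of it have SDs of 0.64 to 1.86.

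In wild-type Ler, limma called 4 of 47 UGT genes for light, 2 higher and 2 lower in red light, where 7.25% of all probe sets were called (3.59% higher and 3.66% lower). The 4 are 8.51% of the family, a share near that of all probe sets. UGT88A1 and UGT73B1 rose, and UGT87A2 and UGT74B1 fell. In atbzip16 it called 8 of 47, 1 higher and 7 lower, where 8.86% of all probe sets were called (4.55% higher and 4.3% lower). UGT88A1 rose again, UGT87A2 and UGT74B1 fell again, and UGT76E11, UGT76E2, UGT73B5, UGT73B4 and UGT85A2 fell. The median log2 fold change over the 47 was -0.02 in Ler and -0.12 in atbzip16, against -0.05 and 0.00 over all probe sets. The dark and red-light arrays did not overlap for 10 of the 47 in Ler, 5 higher and 5 lower, where 23.4% of all probe sets did not overlap (10.7% higher and 12.7% lower). In atbzip16 they did not overlap for 18, 7 higher and 11 lower, where 27.2% of all probe sets did not (13.9% higher and 13.3% lower). After median centring, which moved the median of all probe sets to 0.09 in Ler and 0.12 in atbzip16, the split of called UGT genes was 3 higher and 0 lower in Ler, and 2 higher and 5 lower in atbzip16.

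**Figure D2:**
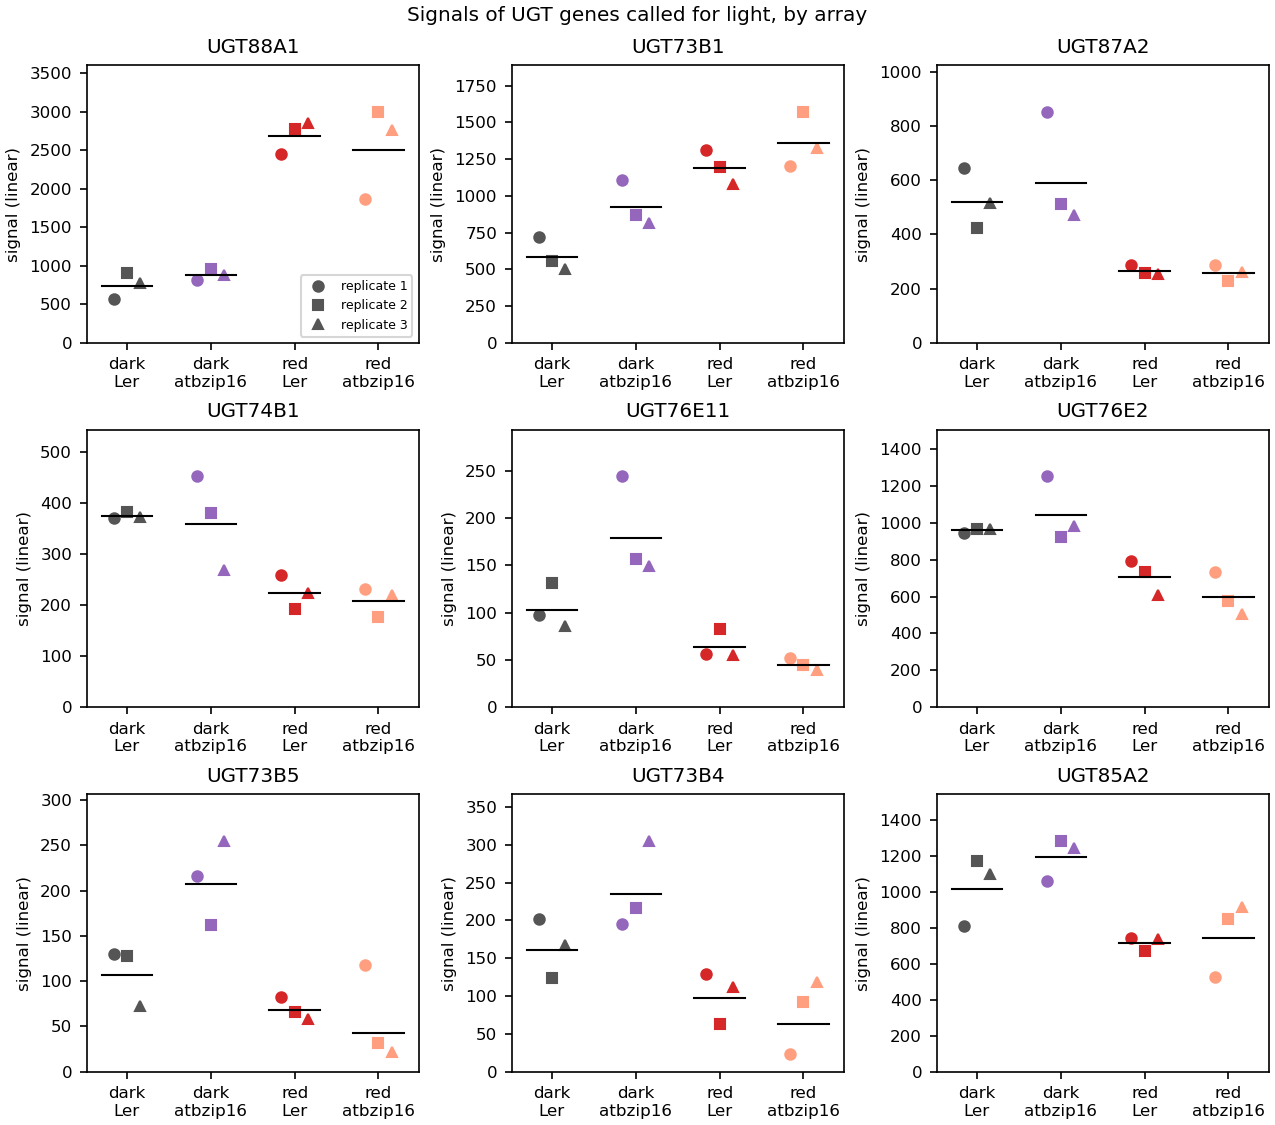
Linear signal on each of the 12 arrays for the 9 UGT genes called for light in 1 or both genotypes. Marker shapes are replicate numbers and bars are geometric means of 3 arrays. UGT88A1 lay between 571 and 960.9 on the 6 dark arrays and between 1873 and 3002.9 on the 6 red-light arrays.

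UGT88A1, a member of group E of the family tree, had signals of 571, 908.2 and 779.3 in dark Ler and 2452.5, 2774.9 and 2858 in red-light Ler. In atbzip16 it had 818.1, 960.9 and 884.3 in the dark and 1873, 3002.9 and 2767 in red light. The 2 light conditions did not overlap in either genotype. The rise was 1.86 ± 0.19 on the log2 scale in Ler (SE over 3 against 3 arrays, adjusted p = 4.64e-05 by limma), which is 3.64-fold, and 1.49 ± 0.19 in atbzip16 (adjusted p = 0.000237), which is 2.82-fold. The call held without any 1 array in both genotypes, with values of 1.68 to 2.01 in Ler and 1.36 to 1.70 in atbzip16.

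UGT73B1, whose subfamily includes enzymes that glucosylate flavonols and abscisic acid in vitro, had signals of 717.1, 559.2 and 500.7 in dark Ler and 1312.9, 1194.3 and 1082.7 in red-light Ler. In atbzip16 it had 1110.3, 871.2 and 817.8 in the dark and 1204.2, 1574.2 and 1325.9 in red light. It was lowest in dark Ler, and the red-light arrays of each genotype lay above its dark arrays. It rose by 1.03 ± 0.17 in Ler (limma adjusted p = 0.00183), with values of 0.91 to 1.17 without any 1 array, all called. In atbzip16 the log2 fold change was 0.56 ± 0.17 (adjusted p = 0.0554, and 0.00812 with replicate number as a block).

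UGT87A2, an enzyme with a reported role in flowering time, had signals of 645.7, 424.5 and 516.7 in dark Ler and 286.2, 256.7 and 254 in red-light Ler. In atbzip16 it had 854.4, 513.9 and 472.6 in the dark and 286.5, 226.8 and 260 in red light. All 6 red-light arrays lay below all 6 dark arrays. It fell by 0.97 ± 0.22 in Ler (limma adjusted p = 0.0175) and by 1.21 ± 0.22 in atbzip16 (adjusted p = 0.00391). In Ler the call ended without dark replicate 1 or 3 or red-light replicate 2 or 3 (log2 fold changes of -0.98 to -0.82, adjusted p 0.0549 to 0.0615), and after median centring (-0.83, adjusted p = 0.063). The Ler call also ended without a variance trend (adjusted p = 0.0562). With replicate number as a block UGT87A2 was called in both genotypes (adjusted p = 0.000519 in Ler).

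UGT74B1 makes desulfoglucosinolates, the last step but one in building the glucosinolate core. Its signals were 370.5, 382.5 and 372.2 in dark Ler, 452.7, 379.5 and 268.1 in dark atbzip16, 259, 193.2 and 223.9 in red-light Ler and 232.2, 176.8 and 219 in red-light atbzip16. The lowest dark array, replicate 3 of atbzip16, lay just above the highest red-light array. UGT74B1 fell by 0.75 ± 0.21 in Ler (limma adjusted p = 0.0498) and by 0.79 ± 0.21 in atbzip16 (adjusted p = 0.0337). Both calls lay near the threshold. In Ler the call ended without any dark replicate or without red-light replicate 2 or 3 (-0.75 to -0.64, adjusted p 0.0815 to 0.165), and in atbzip16 without dark replicate 1 or 2 or red-light replicate 2 or 3 (-0.82 to -0.62, adjusted p 0.0767 to 0.134). The Ler call also ended without dark atbzip16 replicate 2 or any red-light atbzip16 replicate, which enter the fit through the shared spread (adjusted p 0.0516 to 0.0721). Both ended after median centring (-0.60 and -0.67), after quantile normalization (-0.63 and -0.68) and without a variance trend (adjusted p = 0.0868 and 0.0612). Both held with the block (adjusted p = 0.0127 and 0.008).

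UGT76E11, which glucosylates flavonols in vitro, and UGT76E2 belong to family 76. UGT76E11 had signals of 97.1, 131.8 and 86 in dark Ler, 244.3, 157 and 148.9 in dark atbzip16, 56.1, 82.4 and 54.8 in red-light Ler and 51.8, 44.8 and 39.3 in red-light atbzip16. The 4 groups did not overlap in any of the 4 pairwise comparisons made. It fell by 1.99 ± 0.35 in atbzip16 (limma adjusted p = 0.0027), which is 3.97-fold lower, and had a log2 fold change of -0.71 ± 0.35 in Ler (adjusted p = 0.298). UGT76E2 had signals of 944.6, 967.5 and 967.3 in dark Ler, 1253.2, 923.3 and 979.8 in dark atbzip16, 794.5, 732 and 606.6 in red-light Ler and 733.2, 577.6 and 507.6 in red-light atbzip16. All 6 dark arrays lay above all 6 red-light arrays. It fell by 0.80 ± 0.16 in atbzip16 (adjusted p = 0.00735) and had -0.44 ± 0.16 in Ler (adjusted p = 0.142, and called at 0.0206 with the block). Both atbzip16 calls held without any 1 array (-2.12 to -1.76 for UGT76E11 and -0.95 to -0.67 for UGT76E2).

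UGT73B5 and UGT73B4 lie next to each other in the genome. UGT73B5 is known from resistance to Pseudomonas and redox balance, and UGT73B4 conjugates breakdown products of the explosive TNT. UGT73B5 had signals of 129.8, 128 and 73 in dark Ler, 215.7, 161.9 and 255.2 in dark atbzip16, 82, 66.1 and 57.7 in red-light Ler and 118.3, 31.3 and 21.5 in red-light atbzip16. The dark atbzip16 arrays were the highest, and red-light atbzip16 replicate 1 stood well above the other two of its group. UGT73B4 had 202.3, 123.3 and 167.2 in dark Ler, 195.7, 216.3 and 305.7 in dark atbzip16, 128.6, 63.7 and 112.4 in red-light Ler and 23.2, 92 and 118 in red-light atbzip16. Here red-light atbzip16 replicate 1 was the lowest of all arrays, so that the neighbours did not share that departure.

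UGT73B5 fell by 2.27 ± 0.53 in atbzip16 (limma adjusted p = 0.0163), 4.82-fold, and UGT73B4 by 1.89 ± 0.52 (adjusted p = 0.0358), 3.72-fold. In Ler the values were -0.65 ± 0.53 and -0.73 ± 0.52, neither called. In atbzip16 the call of UGT73B5 ended without dark replicate 1 or 3 or red-light replicate 2 or 3 (-2.24 to -1.77, adjusted p 0.0521 to 0.0731). That of UGT73B4 ended without any dark replicate or red-light replicate 1 (-2.03 to -1.17, adjusted p 0.064 to 0.134), and without dark Ler replicate 3 (adjusted p = 0.0511). The UGT73B4 call, unlike that of UGT73B5, also ended after quantile normalization (-1.88, adjusted p = 0.0511) and without a variance trend (adjusted p = 0.0846). With the block both were called (adjusted p = 0.00278 and 0.0104). A probe set shared by UGT73B2 and UGT73B3, which is not counted among the 47, had -0.01 ± 0.30 in Ler and -0.73 ± 0.30 in atbzip16 (adjusted p = 0.174, and 0.00632 with the block).

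UGT85A2 had signals of 814.2, 1173.4 and 1103.1 in dark Ler, 1059.6, 1287.5 and 1247.6 in dark atbzip16, 742.6, 671.1 and 737.3 in red-light Ler and 527.2, 852.4 and 919.3 in red-light atbzip16. Dark and red-light arrays did not overlap within a genotype. It fell by 0.68 ± 0.20 in atbzip16 (limma adjusted p = 0.0499) and had -0.51 ± 0.20 in Ler (adjusted p = 0.168, and 0.024 with the block). The atbzip16 call ended without any 1 of the atbzip16 arrays other than red-light replicate 3 (-0.78 to -0.43, adjusted p 0.0617 to 0.155), and without any 1 of the Ler arrays other than dark replicate 1 (adjusted p 0.0526 to 0.0676). This call also ended after quantile normalization (-0.65, adjusted p = 0.0654), after median centring (-0.57, adjusted p = 0.0818) and without a variance trend (adjusted p = 0.129).

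Replicate number as a block left each fold change as it was and added calls in both genotypes. It called 9 UGT genes in Ler, 4 higher and 5 lower, where it called 15.4% of all probe sets (7.37% higher and 8.05% lower). Those added, each with the SE of the block fit, were UGT74D1, which glucosylates auxin (0.70 ± 0.18, block adjusted p = 0.0154), UGT84A3, an enzyme of hydroxycinnamate esters (1.25 ± 0.38, 0.0399), UGT76B1, which acts on isoleucic and salicylic acid (-0.62 ± 0.17, 0.0211), UGT76E2 and UGT85A2. In atbzip16 it called 11, 3 higher and 8 lower, where it called 17.6% of all probe sets (8.84% higher and 8.81% lower). Added there were UGT73B1, UGT71C1 (1.38 ± 0.43, 0.0376) and UGT72E1, which glucosylates monolignols and their aldehydes (-0.66 ± 0.11, 0.000762). None of the 16 dim genes was added. The 6 of 47 UGT genes called in both genotypes with the block were UGT73B1, UGT74B1, UGT76E2, UGT85A2, UGT87A2 and UGT88A1. Of all 22746 probe sets, 2426 were called in both genotypes with the block, and whether the shares differ was not tested.

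The residuals of the 4 arrays numbered 1 correlated most with each other, and replicate 1 stood apart in several UGT genes. UGT74D1 read 563.3 on dark atbzip16 replicate 1 and 1303.4 and 1103 on the other dark atbzip16 arrays. UGT72E1 read 1165.3 and 1565.8 on the dark arrays numbered 1 and 649.2 to 862 on the other dark arrays. Without replicate 1 of all groups, an alternative chosen after the data were seen, limma called 12 UGT genes in Ler and 13 in atbzip16, including all 4 and all 8 called on all arrays. Of all 22746 probe sets it then called 3943 in Ler, against 1649 on all arrays, so the rise in Ler was not limited to this family. For atbzip16 the share of all probe sets in this setting is not given here, so the 13 stand without a background. The added UGT genes included the dim UGT74F1 in Ler (-3.40). In the Ler replicate 1 left out here, UGT74F1 read 30.6 in the dark and 55.1 in red light, the opposite direction. Also added were the cytokinin N-glucosyltransferases UGT76C1 (0.80 in Ler) and UGT76C2 (-0.52 in Ler and -0.62 in atbzip16), and UGT85A5 (1.04 and 0.78).

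**Figure D3:**
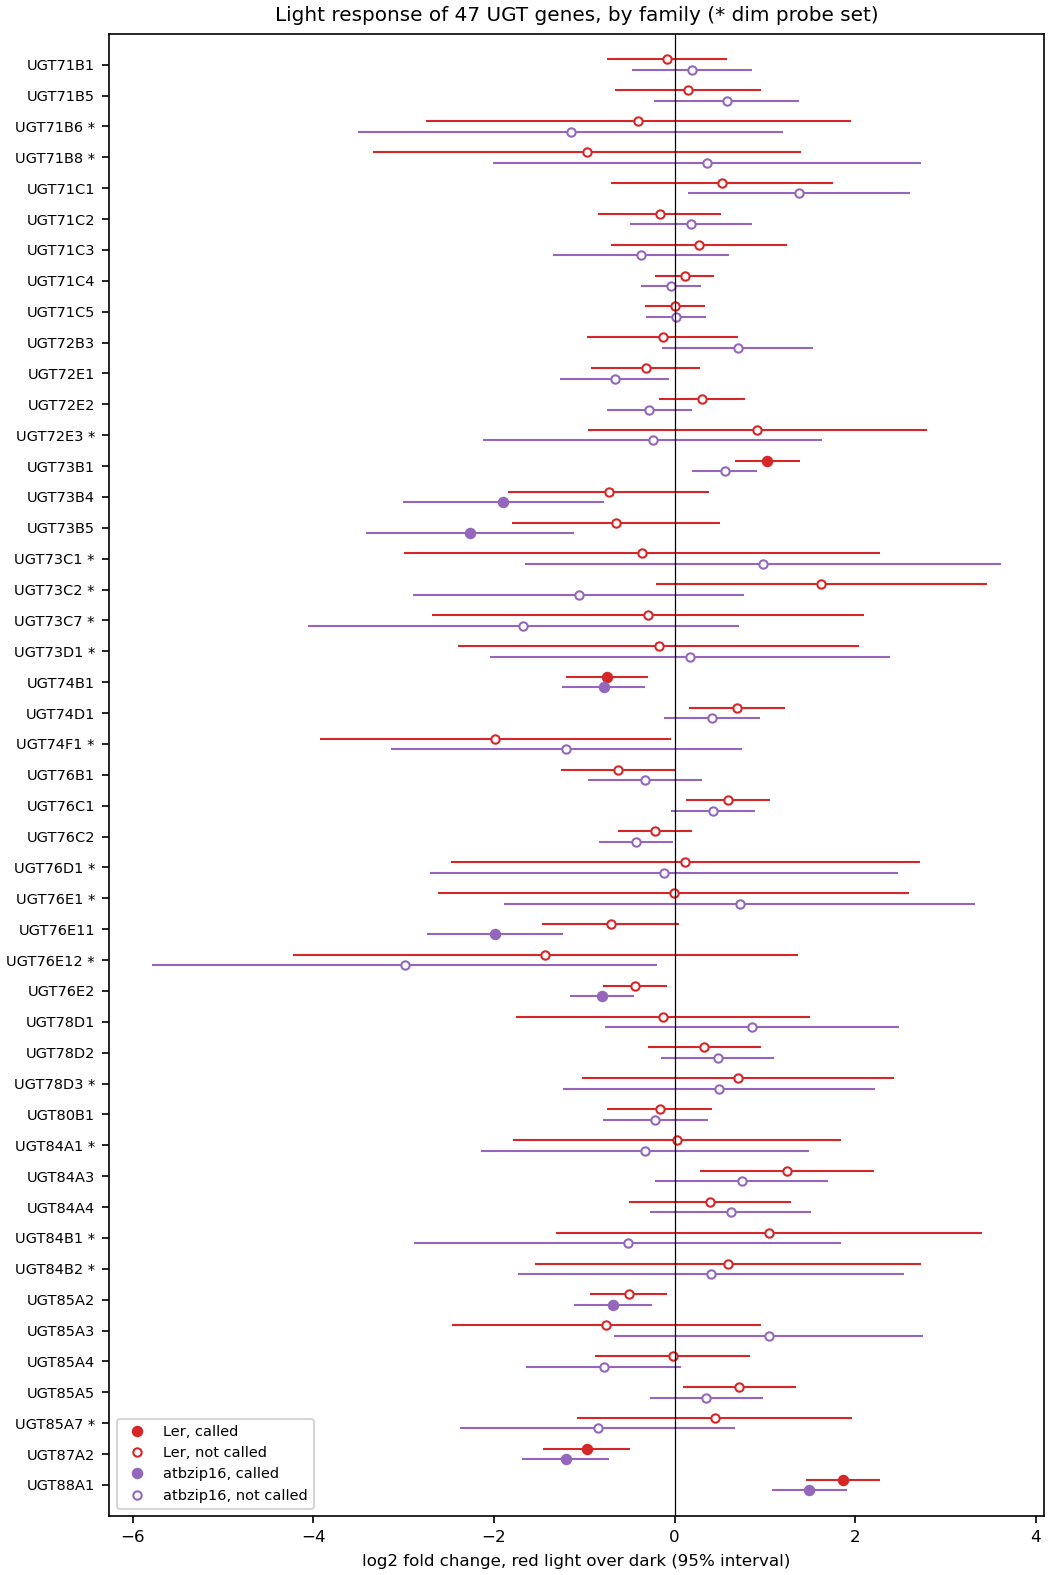
Log2 fold change of red light over dark with its 95% interval for each of the 47 UGT genes, in Ler (red) and atbzip16 (purple), ordered by family number. Filled points were called by limma, 4 in Ler and 8 in atbzip16. Asterisks mark the 16 genes under a signal of 41.6, whose intervals are the widest as a group.

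Among the genes known for hormone acceptors, UGT74D1 and UGT76B1 were called in Ler with the block, as given above. Neither was called in atbzip16, with or without the block. There UGT74D1 had 0.41 (limma adjusted p = 0.143 with the block), and 0.05 without dark replicate 1. UGT76B1 had geometric mean signals of 595 in dark atbzip16 and 474 in red-light atbzip16. UGT71C5, which conjugates abscisic acid, had 0.01 in Ler and 0.02 in atbzip16 with signals of 472.1 to 674 on all 12 arrays. Its 95% interval was narrow in both genotypes, from -0.32 to 0.34 in Ler and from -0.31 to 0.35 in atbzip16. The cytokinin N-glucosyltransferases UGT76C1 and UGT76C2 had opposite signs, 0.59 ± 0.22 and -0.22 ± 0.19 in Ler, and 0.43 ± 0.22 and -0.43 ± 0.19 in atbzip16. Neither was called on all arrays, and the difference between them was not tested. UGT71B6 (abscisic acid), UGT84B1 (auxin) and UGT74F1 (salicylic acid) were among the dim genes, with standard errors of at least 0.90 (log2). UGT74F1 had -1.98 in Ler (limma adjusted p = 0.249) and -1.20 in atbzip16.

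Family 78 holds the flavonoid 3-O-glycosyltransferases, and no member was called for light with or without the block. UGT78D2, a flavonol and anthocyanidin 3-O-glucosyltransferase, had signals of 104.8, 130 and 182.9 in dark Ler, 155.9, 206.6 and 154.1 in red-light Ler, 84, 136.5 and 141.5 in dark atbzip16 and 169.7, 154.8 and 166.3 in red-light atbzip16. Dark and red light overlapped in Ler and did not in atbzip16. Its log2 fold changes were 0.33 (95% interval -0.29 to 0.96, limma adjusted p = 0.603) and 0.48 (-0.15 to 1.10, adjusted p = 0.388). UGT78D1, a flavonol 3-O-rhamnosyltransferase, ranged from 20.4 to 104.4 in dark Ler and from 13.7 to 92.4 in red-light Ler, with replicate 1 the lowest in both groups. In atbzip16 it read 37.1 to 89.7 in the dark and 84.2 to 113.7 in red light, and its log2 fold changes were -0.13 ± 0.75 in Ler and 0.86 ± 0.75 in atbzip16. UGT78D3, a flavonol 3-O-arabinosyltransferase, stayed between 2.7 and 13 on all 12 arrays, too dim for a difference to be resolved.

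Among the genes for phenylpropanoid acceptors, UGT84A3 had signals of 65.2, 59.1 and 41 in dark Ler, 198.8, 60.4 and 175.2 in red-light Ler, 182.1, 127.1 and 84.1 in dark atbzip16 and 258.7, 204.3 and 172.5 in red-light atbzip16. Red-light Ler replicate 2 lay within the dark Ler range. Its neighbours UGT84A1, at 2.7 to 13.5 on all arrays, and UGT84A4, with 0.39 in Ler and 0.62 in atbzip16, were not called. The monolignol enzymes UGT72E1 and UGT72E2 had -0.32 and 0.31 in Ler and -0.66 and -0.28 in atbzip16. UGT80B1, the sterol glucosyltransferase known from the transparent testa15 mutant, had -0.16 and -0.21 and was not called.

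Few genes that make the acceptors or the sugar donors could be named with the annotation used here. Of 27 flavonoid genes 4 were measured, of 28 glucosinolate genes 3, of 21 phenylpropanoid genes 3 and of 24 UDP-sugar genes 1. One of these 11 was called for light by limma: ALDH2C4, the aldehyde dehydrogenase that forms sinapate and ferulate, fell by 0.47 ± 0.11 in Ler (adjusted p = 0.0224), with -0.29 ± 0.11 in atbzip16. With the block ALDH2C4 was called in both genotypes, and USP, a UDP-sugar pyrophosphorylase, fell by 0.46 in atbzip16 (block adjusted p = 0.0184). The 4 flavonoid genes all lay under a signal of 41.6, with geometric means of 6.72 to 34.6. Their light responses are therefore poorly resolved. BCAT4 of the glucosinolate list (28.7) and CCR2 of the phenylpropanoid list (38.5) also lay under 41.6.

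Most of the genes lie in clusters. In the TAIR10.1 gene order 31 of the 47 stand in 13 clusters with at most 2 protein-coding genes between members, 9 clusters of 2, 3 of 3 and 1 of 4. Neighbours did not always share a sign. In the cluster of UGT85A7, UGT85A2, UGT85A5 and UGT85A3, UGT85A2 had -0.51 in Ler while UGT85A5 had 0.72. In atbzip16 those neighbours had -0.68 and 0.35. UGT73B5 and UGT73B4 had similar values in both genotypes, as given above. UGT76E12, the neighbour of UGT76E11, had -1.43 ± 1.30 in Ler and -2.99 ± 1.30 in atbzip16, from a dim probe set that was not called. Differences between neighbours were not tested, nor was cross-hybridization between close copies.

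The light responses of the genotypes rest on separate arrays, and 29 of 47 UGT genes had the same sign in both (61.7%), against 69.6% of all probe sets. Among the 31 brighter genes 23 did (74.2%, against 76.2% of all brighter probe sets), and among the 16 dim ones 6 did (37.5%). The share among all dim probe sets was not taken, so the 37.5% has no matching background here. Across the 47 genes, which are not replicates, the log2 fold changes had a Pearson correlation of 0.51 and a Spearman correlation of 0.48, and across the 31 brighter genes 0.68 and 0.65. Over all probe sets these correlations were 0.48 and 0.43, and over the brighter ones 0.81 and 0.69. All 9 genes called in either genotype had the same sign in both. They were picked by those calls, and the share among all called probe sets was not taken.

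**Figure D4:**
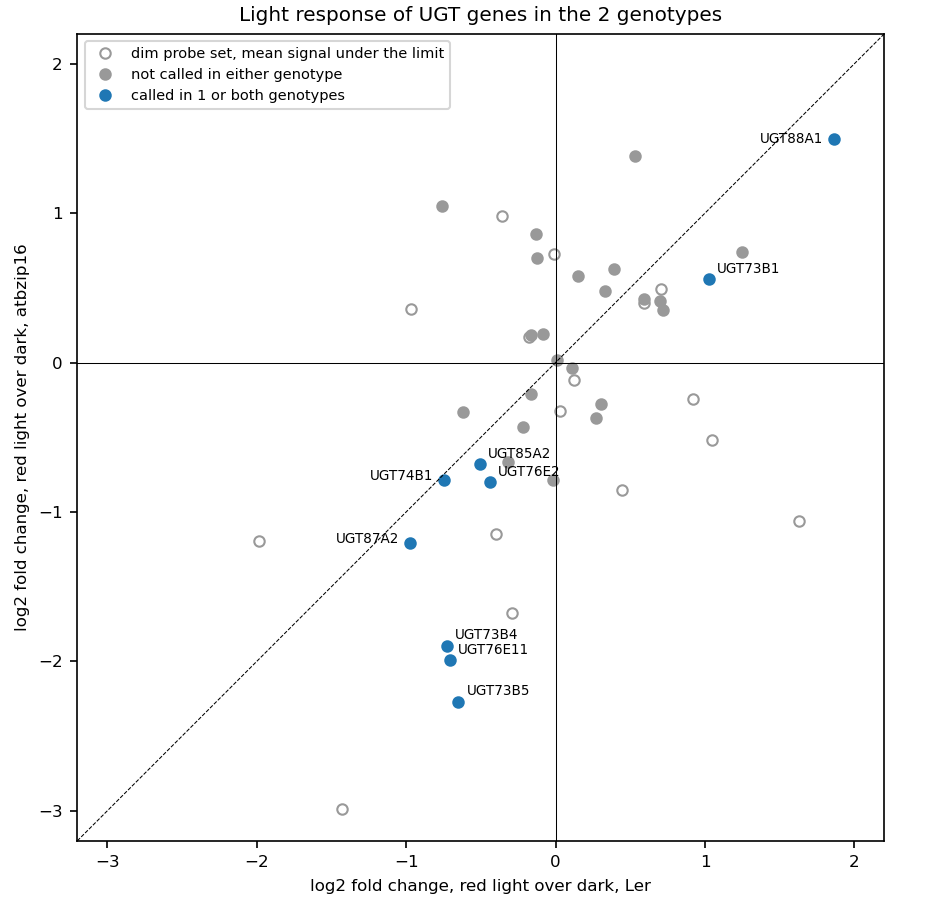
Log2 fold change of red light over dark in atbzip16 against that in Ler, 1 point per UGT gene, with the line of equality dashed. Blue points were called in 1 or both genotypes, open points are dim probe sets. UGT73B4, UGT73B5 and UGT76E11 lie farthest below the line among the called genes.

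Whether the light response differed between genotypes was tested by the interaction, and no UGT gene was called by limma (smallest adjusted p = 0.9998, with 2 of 47 at an unadjusted p under 0.05) or with the block (smallest adjusted p = 0.557). Among all probe sets 0.0% were called without the block and 0.22% with it (0.0132% higher and 0.207% lower). Without the block 932 of these 22746 had an unadjusted p under 0.05. The difference, atbzip16 minus Ler, was -1.28 for UGT76E11 (95% interval -2.35 to -0.21), -1.62 for UGT73B5 (-3.24 to 0.01), -1.17 for UGT73B4 (-2.74 to 0.41) and -2.69 for the dim UGT73C2 (-5.29 to -0.09). These intervals are not adjusted for the number of genes. For UGT88A1 it was -0.37 (-0.95 to 0.21) and for UGT87A2 -0.23 (-0.91 to 0.45). A gene called in atbzip16 and not in Ler is thus not shown to differ between them.

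Between genotypes in the dark, limma called no UGT gene (smallest adjusted p = 0.308, with 5 of 47 at an unadjusted p under 0.05), where 0.0791% of all probe sets were called (0.0528% higher and 0.0264% lower). An unadjusted p under 0.05 was seen in 1315 of all 22746 probe sets. Among the UGT genes UGT73B1 had the smallest p, and its 3 dark atbzip16 arrays lay above its 3 dark Ler arrays. The log2 fold change was 0.66 ± 0.17, 1.58-fold, and with the block, which called 1.12% of all probe sets (0.769% higher and 0.352% lower), UGT73B1 was the one UGT gene called (adjusted p = 0.0247). The probe set shared by UGT73B2 and UGT73B3, with signals of 1216.6, 599.2 and 642.8 in dark Ler and 2497.2, 1171.4 and 1125.5 in dark atbzip16, had 0.94 ± 0.30 (adjusted p = 0.548, and 0.0117 with the block). UGT84A3 had 1.21 ± 0.45 and the dim UGT84B1 2.58 (95% interval 0.22 to 4.94), neither called. The dark groups did not overlap for 9 of the 47 genes, 8 higher and 1 lower in atbzip16, where 11.6% of all probe sets did not overlap (5.75% higher and 5.86% lower). The summed seed signals given above were also higher in dark atbzip16 than in dark Ler on every array. OLEO3 alone of the 4 seed genes was lower there, with geometric means of 2289 in dark Ler and 1780 in dark atbzip16. Between genotypes in the dark, limma called 0 of these 4 genes without the block and 1 with it. The part of seed RNA in these UGT differences was not tested.

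Between genotypes in red light, limma called no UGT gene with or without the block (smallest adjusted p = 0.933 without it, with 1 of 47 at an unadjusted p under 0.05), where 0.0264% of all probe sets were called without it (0.00879% higher and 0.0176% lower) and 0.317% with it (0.127% higher and 0.189% lower). An unadjusted p under 0.05 was seen in 1210 of all 22746 probe sets without the block. Among the UGT genes UGT85A3 had the smallest p, with 5.5, 81.7 and 45.4 in red-light Ler and 87.9, 84.2 and 100.1 in red-light atbzip16. The groups did not overlap, but 1 Ler array was far below the others, and the log2 fold change of 1.73 ± 0.79 was 0.57 without red-light Ler replicate 1. UGT71B1 and UGT71C2 followed with 0.56 each. The groups did not overlap for 4 of 47 genes, 3 higher and 1 lower, where 10.0% of all probe sets did not overlap (5.79% higher and 4.26% lower).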

How the data were processed

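The authors deposited linear probe set intensity made with MAS5, per the submitters' processing notes. Version, settings and detection calls are not given in the sources used here, and no background step could be redone. Each array's mean without the lowest and highest 2% was 500.04 to 500.05. Intensities of 22746 non-control probe sets were taken to log2 without a pseudocount or signal filter. A mean per group was fitted over 12 arrays with limma 3.58.1 in R 4.3.3 (eBayes with a variance trend). A run of this fit on simulated data drew independent noise for each array. It therefore does not bear on the correlations between same-numbered arrays given below. P values were Benjamini-Hochberg adjusted over all probe sets within each of 5 contrasts, and errors given as ± are SE, without the block unless stated.

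Probe sets were named from the platform annotation, with 13513 of 22746 annotated here to 1 gene and symbols checked by Entrez ID against TAIR10.1. All 47 UGT symbols matched. Sequences were not used here.

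Same-numbered arrays of different groups had residual correlations of 0.16 to 0.50 over the brighter 70% of probe sets (0.02 to 0.16 over all). Those over the brighter 70% lay above the 0.1 set for pairing, so values with replicate number as a block stand beside results whose call they change. Differently numbered arrays had -0.39 to 0.25 over the brighter 70%. Among them every pair of a replicate 2 with a replicate 3 had 0.105 to 0.248, also above 0.1. The rule thus sets replicate 1 apart but does not show that replicates 2 and 3 pair by number. The titles number the replicates and call them biological.

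Genes named are those called in a contrast (or the 3 smallest p), the 5 brightest and 5 dimmest, and family 78, plus genes called with the block and others picked by acceptor or neighbourhood after their values were seen. Members and lists were chosen with earlier results of these data known.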

Additional observations from a re-analysis of the deposited data

Results flagged for a closer look

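UGT76E11 was singled out because its genotype difference had opposite directions in the 2 light conditions in every replicate pair. The log2 fold change of atbzip16 over Ler was 0.79 ± 0.35 in the dark and -0.49 ± 0.35 in red light, neither called, and the difference between these was -1.28 (limma adjusted p = 0.9998, and 0.557 with replicate number as a block), so the tested interaction was not called. Such a pattern was seen in 1 of 47 UGT genes (2.13%) and in 972 of 22746 probe sets (4.27%).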

How the results depend on the processing

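Groups of 3 arrays limit every count here, and 16 of 47 genes were too dim for differences below several fold. The count of UGT genes called for light in Ler, 4 on all arrays, was 2 without a variance trend, 9 with the replicate block, 10 with the replicate block and the dimmest 30% left out, 12 without replicate 1 of all groups, and 2 to 4 without any 1 of the 6 Ler arrays (2 to 5 over all 12 arrays). In atbzip16, 8 became 5 after quantile normalization, 5 without a variance trend, 13 without replicate 1 of all groups, and 5 to 7 without any 1 of the 6 atbzip16 arrays (5 to 9 over all 12 arrays). Calls over all probe sets moved too. In Ler 1649 became 1057 without a variance trend, 3508 with the block, 3761 with the block and filter, and 3943 without replicate 1 of all groups. They were 923 to 1833 without any 1 of the 6 Ler arrays. In atbzip16, 2015 became 2012 after quantile normalization and 1386 without a variance trend. The count in the dark, 0, became 1 with the replicate block, with or without the dim probe sets, and without replicate 1 of all groups (UGT73B1 each time). The counts for red light and for the interaction were 0 under every alternative run, and 0 in the dark without any 1 array. No called value of a named gene changed sign. With a pseudocount of 16, UGT74B1 in Ler (adjusted p = 0.0509) and UGT85A2 in atbzip16 (adjusted p = 0.0506) were no longer called. The platform's own symbols gave the same 47 members, and no gene had a further probe set. The replicate block changed no other call of the 47 genes than those given above. Replicate 1 was left out of all groups, and the block joined with the filter, after the data were seen.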
